A study of Danio rerio with 5 samples.

Results

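The sorted eye cells of zebrafish at 120 hours post fertilization (hpf) were compared with those at 96 hpf, as sums over all cells of a library and across all genes. The compared members were 4 of the 10 libraries of the series, 2 per time point, which the table of cells names 120 A, 120 B, 96 A and 96 B. They held 6586 of its 12234 cells. Both groups were GFP+ cells from dissected, trypsin-treated eyes of Tg[foxc1b:GFP] embryos, genotype AB, in which regulatory sequence of foxc1b drives GFP. Embryos of both ages had been kept in 1-phenyl 2-thiourea, a compound that blocks melanin formation, and each collection pooled the eyes of many embryos. The libraries were made with a droplet method (10x Genomics) that reads the 3′ ends of transcripts and counts unique molecular identifiers (UMIs), 1 per captured RNA molecule. A and B are described as independent biological replicates, but GEO lists each time point as a single sample, so that p-values measure the spread between libraries.

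The anterior segment of the eye comprises the cornea, the iris and, in zebrafish, the annular ligament at the angle between them. Much of it arises from neural crest cells that migrate around the optic cup as periocular mesenchyme, and the transcription factors foxc1a and foxc1b are known for their part in this tissue. The corneal epithelium is surface ectoderm, with a basal layer that anchors itself to a basement membrane and a superficial layer. The retina, in turn, comes from the neural tube. It keeps dividing progenitors at its margin, which give rise to ganglion, amacrine, horizontal, bipolar and photoreceptor cells and to Mueller glia. A sum over all cells moves both when the share of a cell type moves and when expression within a type moves, and the comparison was therefore made first on the sums, then on the mix of cell classes and then with that mix held equal.

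Depth differed between the libraries. There were 1897 and 2759 cells at 120 hpf (A and B), against 478 and 1452 cells at 96 hpf. The cells held 5552801 and 15621511 UMIs at 120 hpf, against 2173620 and 7443148 at 96 hpf, and the median cell had 1400 and 3709 UMIs at 120 hpf, against 1350.5 and 1970.5 at 96 hpf. Library 120 B thus stood apart as the deepest. A ribosomal RNA feature took 9.03% and 1.99% of the UMIs at 120 hpf, against 2.84% and 5.31% at 96 hpf. The added eGFP sequence had 0 UMIs in all 4 libraries, so the sorted reporter could not be checked. In the table of cells, 120 A and 96 B carry the same batch name, whereas 120 B and 96 A carry batch names of their own. A further column of it gives 120 A and 96 B the letter K, and 120 B and 96 A the letter J. Another table of the series gives 96 A a different batch name. Between the 4 libraries, 34 cells shared a barcode with a cell of another library. The comparison of 120 A with 96 B, called the same-batch pair here, is given beside the main results, and with 1 library a side it has no replicate and no test.

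The tissue is labelled as anterior segment mesenchyme, and retinal cells were a large part of it. Summed markers of retinal progenitors stood at 3868 and 8635 CPM (counts per 1000000, here UMIs of a gene or list scaled to 1000000 UMIs of the library) at 120 hpf, against 2846 and 1885 CPM at 96 hpf. Photoreceptor markers reached 78.5 and 840.4 CPM at 120 hpf, against 22.1 and 537 CPM at 96 hpf. Markers of leukocytes and of erythrocytes summed to at most 3.36 CPM in any library. Basal epithelium markers had 41670 and 15080 CPM at 120 hpf, against 49520 and 62590 CPM at 96 hpf. In all of these sums, fewer cells of a type and less RNA per cell cannot be told apart.

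The 2 libraries of 120 hpf were less alike than most pairs of different age. Over 10145 genes the median absolute log2 ratio of CPM was 0.746 between 120 A and 120 B, and 0.353 between 96 A and 96 B. The smallest value, 0.283, was that of 120 A and 96 B, which differ in age and share a batch. Of the genes, 35.6% differed by over 2-fold between the 120 hpf libraries, 11.8% between the 96 hpf libraries and 6.38% in the same-batch pair. Genes are not independent replicates, and these values describe the libraries. Age and batch therefore cannot be told apart in any difference that 120 B alone carries.

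Retinal classes made up more of the cells in both 120 hpf libraries than in either 96 hpf library, and mesenchymal classes less, while the epithelial share overlapped between ages. Cells of both ages were clustered in common into 19 clusters, and each cluster was named after the list of markers it was high in. CEp1-like and CEp2-like stand for the marker lists of basal and superficial corneal epithelium, AL2-like for that of the annular ligament, and CSt-like for that of corneal stroma. The CSt-like cluster was led by col10a1a, ifitm1, and2, bhmt and enam, with col1a1a, ogna and col1a2 also among its leading genes. CEp1-like cells held the largest part of the UMIs of the stroma marker lum, 45.9% at 120 hpf and 49.8% at 96 hpf. Whether CSt-like cells are corneal stroma was not tested. Retinal classes together took 39.0% (36.8 to 41.2) and 67.5% (65.7 to 69.3) of the cells of 120 A and 120 B, against 25.9% (22.1 to 30.1) and 15.6% (13.7 to 17.5) of those of 96 A and 96 B (exact 95% binomial intervals, which cover counting error only). Their mean was 53.2% ± 20.2 at 120 hpf and 20.8% ± 7.34 at 96 hpf (SD, n = 2 each), and the same-batch pair differed by 23.4 percentage points. Without 120 B the difference was 18.2 percentage points, and without 120 A 46.8, against 32.5 with all libraries. Mesenchymal classes (CSt-like, cartilage-like and mural-like) took 15.6% (13.9 to 17.3) and 13.6% (12.3 to 14.9) at 120 hpf, against 29.1% (25.0 to 33.4) and 20.9% (18.8 to 23.1) at 96 hpf. Their difference was -10.4 percentage points with all libraries and -5.32 in the pair. As a share of UMIs, mesenchymal classes overlapped between ages, at 9.30% and 7.10% at 120 hpf, against 13.96% and 8.67% at 96 hpf. On that measure 120 A lay above 96 B. The epithelial share was 27.8% (25.8 to 29.9) and 11.9% (10.7 to 13.1) at 120 hpf, against 21.8% (18.1 to 25.7) and 45.9% (43.3 to 48.5) at 96 hpf, so that each age held a low and a high library. An exact permutation test over libraries (two-sided) gave p = 0.3333 for the retinal and the mesenchymal share, the smallest p that 2 against 2 libraries allow. The plot of shares by library gives each class with its interval.

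**Figure D1:**
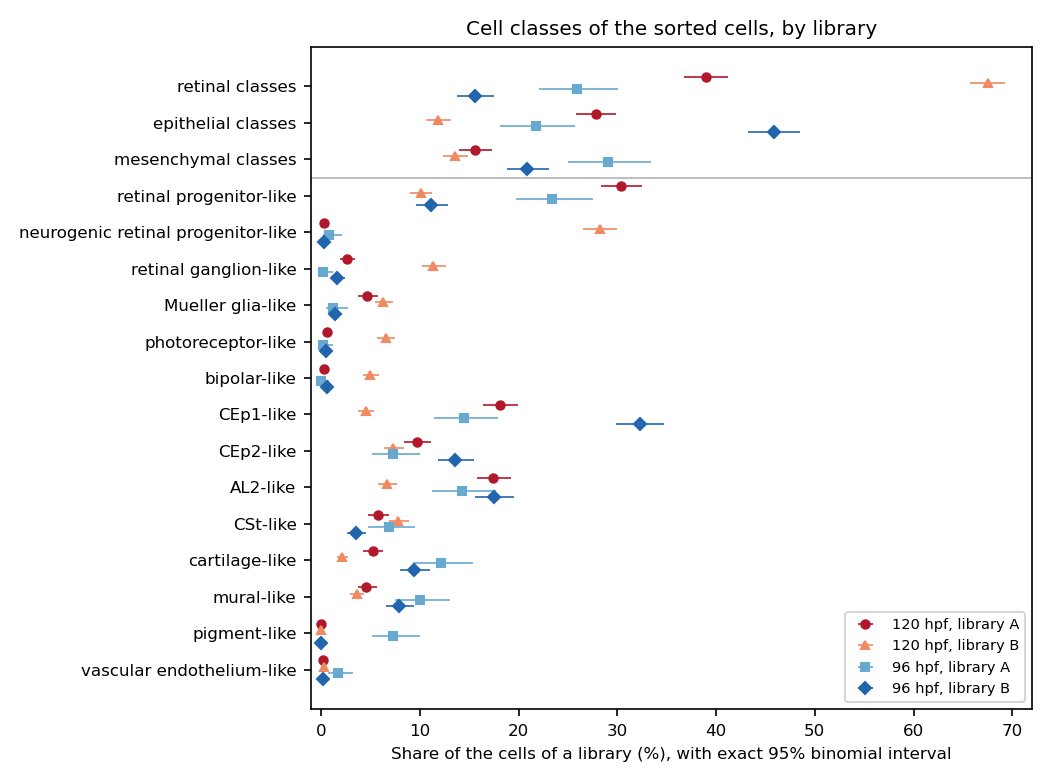
Share of the cells of each library (horizontal axis, %) in 3 groups of classes and in single classes, with exact 95% binomial intervals, for 120 hpf (red, library A circles, library B triangles) and 96 hpf (blue, library A squares, library B diamonds). The retinal share of both 120 hpf libraries, 39.0% and 67.5%, lies above that of both 96 hpf libraries, 25.9% and 15.6%.

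The retinal cells of the 2 libraries of 120 hpf were not of 1 kind. Retinal progenitor-like cells made up 30.4% of 120 A and 10.1% of 120 B, against 23.4% of 96 A and 11.2% of 96 B. Neurogenic retinal progenitor-like cells, in clusters with atoh7, fabp7a and gadd45gb.1 among their leading genes, were 0.316% and 28.2% at 120 hpf, against 0.837% and 0.275% at 96 hpf. One of these clusters, with 364 cells of 120 B, was led by pde6gb, and neurod1 and otx5 were also among its leading genes. Whether its cells are progenitors or photoreceptor precursors was not tested. The split between progenitor-like and neurogenic cells depended on the resolution. At resolution 2, where a cluster led by dla, rx1 and foxn4 was also named neurogenic, the neurogenic share was 18.9% and 26.3% at 120 hpf, against 15.06% and 2.69% at 96 hpf. Both progenitor classes together, the cluster led by pde6gb included, made up 30.7% and 38.3% of cells at 120 hpf, against 24.3% and 11.4% at 96 hpf, without overlap. At resolution 2 they made up 29.3% and 33.9%, against 23.9% and 10.9%. There a cluster led by pde6gb was left unnamed and lay outside both classes. Of the retinal progenitor-like cells of 120 B, 254 of 278 lay in a cluster that held 6, 8 and 2 cells of 120 A, 96 A and 96 B, and the other 3 libraries shared another cluster. Mueller glia-like cells were 4.69% and 6.31% at 120 hpf, against 1.26% and 1.38% at 96 hpf, without overlap. The difference was 4.18 percentage points, but 0.936 with each time point clustered by itself and 1.59 as a share of UMIs. With each time point clustered by itself the ages overlapped, at 4.59% and 6.20% at 120 hpf, against 2.30% and 6.61% at 96 hpf. A cluster named retinal ganglion-like, whose leading genes also include pvalb6, bhlhe22 and meis2b, held 2.64% and 11.4% of cells at 120 hpf, against 0.209% and 1.65% at 96 hpf. At resolution 2 those genes led a cluster named amacrine or horizontal, and the ganglion-like share was 0.949% and 4.096% at 120 hpf, against 0% and 0.758% at 96 hpf. Pigment-like cells were found only in 96 A, where they were 7.32% of cells. At 0 of 1897, 0 of 2759 and 0 of 1452 cells in the other libraries, a count of 0 allows shares of up to 0.158%, 0.109% and 0.207%. Cartilage-like cells were 5.22% and 2.14% at 120 hpf, against 12.1% and 9.44% at 96 hpf. The last difference rests on how clusters were drawn, since it turned to 3.77 percentage points in favour of 120 hpf when each time point was clustered by itself, against -7.11 here. In that clustering 17.99% of 96 A and 10.61% of 96 B were named corneal endothelium-like, and 0% at 120 hpf. CSt-like cells were then 0% at 96 hpf and mural-like cells 0% at 120 hpf. The difference of all mesenchymal classes together was -10.6 percentage points. Tests within these classes use the clusters drawn in common.

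Across all genes, summed per library, no gene passed the test. Of 10145 genes tested with edgeR (quasi-likelihood F test, Benjamini-Hochberg adjustment), 0 had an adjusted p under 0.05 (0% of genes) and 539 an unadjusted p under 0.05 (5.31%). DESeq2 called 74 of the same genes (0.729%), edgeR without a filter on low counts 84 of 14154 (0.593%), and edgeR with a block of 120 A with 96 B and of 120 B with 96 A 103 (1.02%). Both 120 hpf libraries lay above both 96 hpf libraries in CPM for 1265 genes (12.5%) and below them for 1927 (19%). In the same-batch pair 414 genes were over 2-fold higher at 120 hpf (4.08%) and 236 over 2-fold lower (2.33%). The median log2 fold change over all genes was 0.08 after TMM scaling and -0.09 without it. Leaving out 1 library raised the calls to between 4 (without 120 B) and 112 (without 96 B), with 45 without 120 A and 58 without 96 A.

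The genes of smallest p that were higher at 120 hpf came from few cells or from the retina, and all of them missed the threshold. apoa1b, which encodes the main apolipoprotein of high-density lipoprotein, had 183 and 29.7 CPM in 120 A and 120 B, against 0.460 and 0.134 CPM in 96 A and 96 B (adjusted p = 0.172). It was read in 63 and 42 cells at 120 hpf, against 1 and 1 cells at 96 hpf, and 10 cells held 86.9% of its 120 hpf UMIs. The ratio of its pooled UMIs, 1480 against 2, was 336 (exact interval 92.9 to 2778, counting error only). apoa4b.1, another apolipoprotein gene, had 12.2 and 74.96 CPM at 120 hpf, against 0 and 0.269 CPM at 96 hpf. It was found in 9 and 21 cells at 120 hpf, against 0 and 2 at 96 hpf. pou3f1, a POU domain transcription factor of neural cells, stood at 42.9 and 83.2 CPM at 120 hpf, against 9.66 and 4.43 CPM at 96 hpf, with a log2 fold change of 3.47 ± 0.68 (SE; adjusted p = 0.625). In the same-batch pair its log2 ratio was 3.01. In the pair olig2 and hyal6 had log2 ratios of 2.42 and 2.07. For olig2, a basic helix-loop-helix factor, 82.7% of the 120 hpf UMIs came from neurogenic retinal progenitor-like cells, and it had 12.2 and 94.7 CPM at 120 hpf, against 3.68 and 1.48 CPM at 96 hpf. hyal6, of the hyaluronidase family, was mostly read in Mueller glia-like cells and had 35.3 and 51.5 CPM at 120 hpf, against 2.30 and 7.66 CPM at 96 hpf.

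The 5 lower genes of smallest p also missed the threshold. For tyrp1b and pmela, of pigment granules, 96 A alone carried the difference. tyrp1b had 6.12 and 0.704 CPM at 120 hpf, against 2539 and 13.2 CPM at 96 hpf, and pmela had 7.02 and 0.896 CPM, against 943 and 11.7 CPM. This is the library with the pigment-like cluster, and in the same-batch pair their log2 ratios were -0.99 and -0.66. si:ch211-251f6.6 was read in 4 and 8 cells at 120 hpf, against 3 and 11 at 96 hpf, and its 2.16 and 1.54 CPM at 120 hpf stood against 58.0 and 21.1 CPM at 96 hpf. The remaining lower genes were epithelial. entpd3, an ectonucleotidase, had 13.5 and 6.21 CPM at 120 hpf, against 57.5 and 41.5 CPM at 96 hpf, and zgc:162509 37.1 and 17.03 CPM, against 117 and 177 CPM. Of their 96 hpf UMIs, 97.0% and 96.7% came from CEp1-like cells, and the log2 fold changes were -2.19 ± 0.55 and -2.34 ± 0.61 (SE, adjusted p = 0.625 for both), and -1.55 and -2.23 in the pair.

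The reporter's own gene was low in all libraries. foxc1b had 57.6 and 20.9 CPM at 120 hpf, against 100.3 and 69.3 CPM at 96 hpf, without overlap, and its log2 fold change was -0.98 ± 0.58 (adjusted p = 0.936). Its paralog foxc1a had 65.0 and 21.8 CPM at 120 hpf, against 93.4 and 75.9 CPM at 96 hpf. In the same-batch pair the log2 ratios of foxc1b and foxc1a were -0.26 and -0.22. Both were highest in number of UMIs in mural-like cells. The list of anterior segment transcription factors and disease genes holds both genes. Of its 17 tested members 9 were lower in both 120 hpf libraries, foxc1b and foxc1a included. Another was myoc, which encodes myocilin (76.9 and 44.7 CPM at 120 hpf, against 117 and 97.7 CPM at 96 hpf). The list's median log2 fold change was -0.70, and -0.26 in the pair. The annular ligament gene scinla, an actin-severing protein of the gelsolin family that is abundant in this tissue, had 8583 and 4604 CPM at 120 hpf, against 7570 and 6033 CPM at 96 hpf, and the ages overlapped. lxn, a carboxypeptidase inhibitor, had 158 and 99.6 CPM, against 155 and 149 CPM, also with overlap, and the sign of both depended on the scaling or on single libraries.

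Lists of genes were next read by the number of members whose ages did not overlap and by their median, beside the 12.5% and 19% of all genes. None of the members of the 34 lists passed the test over all genes. The transcription factors that set the fate of retinal neurons lay to 1 side. Of 18 tested, 16 were higher in both 120 hpf libraries and 0 lower, with a median log2 fold change of 3.02. All 18 were also higher in the same-batch pair, at a median of 1.68. atoh7, the factor that ganglion cells require, had 24.9 and 240.4 CPM at 120 hpf, against 8.74 and 2.55 CPM at 96 hpf. neurod1, of photoreceptor and amacrine precursors, had 29.4 and 219 CPM, against 8.28 and 9.27 CPM, and foxn4, of amacrine and horizontal precursors, 48.3 and 102 CPM, against 33.6 and 9.14 CPM. For vsx1, a bipolar cell factor, the values were 21.1 and 236 CPM at 120 hpf, against 4.14 and 20.3 CPM at 96 hpf, and 120 A and 96 B hardly differed. In each of these the level of 120 B was the highest, by a factor of over 2 above 120 A.

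Eye field and Notch genes pointed the same way with smaller medians. Of 15 eye field and retinal homeobox genes 11 were higher in both 120 hpf libraries (median log2 fold change 1.82, pair 0.87). rx1, which marks the retinal margin, had 126 and 59.9 CPM at 120 hpf, against 57.5 and 41.2 CPM at 96 hpf, and six3b 47.2 and 116 CPM, against 31.7 and 23.5 CPM. pax6a was nearly level, at 213 and 215 CPM at 120 hpf and 204 and 169 CPM at 96 hpf. Notch ligands, receptors and targets had 8 of 26 higher and 3 lower, with a median of 0.63 and 0.92 in the pair. hes6, an inhibitor of Notch target repressors, had 88.2 and 401 CPM at 120 hpf, against 61.2 and 34.1 CPM at 96 hpf.

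Genes of mature retinal neurons did not separate the ages. Of 24 opsin and phototransduction genes 2 were higher and 1 lower in both 120 hpf libraries, and the median was 0.72 over 4 libraries but -1.12 in the pair. Rhodopsin (rho), the rod pigment, had 5.403 and 296 CPM at 120 hpf, against 0 and 366 CPM at 96 hpf, so that a low and a high library stood in each age. Of its UMIs, 96.3% at 120 hpf and 99.0% at 96 hpf lay in 10 cells. The red cone opsin opn1lw2 had 40.7 and 168 CPM at 120 hpf, against 0 and 55.5 CPM at 96 hpf. Synaptic vesicle genes behaved alike, with 2 of 18 higher and a pair median of -0.59.

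Some genes of dividing cells were higher in both 120 hpf libraries, and others overlapped. In DNA replication 15 of 28 were higher in both 120 hpf libraries and 0 lower (median 0.95, pair 0.31). pcna, the sliding clamp, had 383 and 949 CPM at 120 hpf, against 424 and 295 CPM at 96 hpf, and mcm7, of the replicative helicase, 211 and 363 CPM, against 181 and 150.1 CPM. In mitosis 8 of 27 were higher and 0 lower (median 1.15, pair 0.57), with mki67 at 228 and 164 CPM at 120 hpf, against 110 and 113 CPM at 96 hpf. High mobility group genes, which encode chromatin proteins abundant in progenitors, were higher in 6 of 12. hmgn2 had 2001 and 9511 CPM at 120 hpf, against 1825 and 1164 CPM at 96 hpf, and a log2 fold change of 2.25 ± 0.75, but only 0.78 in the pair. For hmgb2b, with 442 and 2817 CPM at 120 hpf and 543 and 294 CPM at 96 hpf, the ages overlapped. The radial glial lipid carrier fabp7a had 1476 and 6713 CPM at 120 hpf, against 1161 and 662 CPM at 96 hpf.

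**Figure D2:**
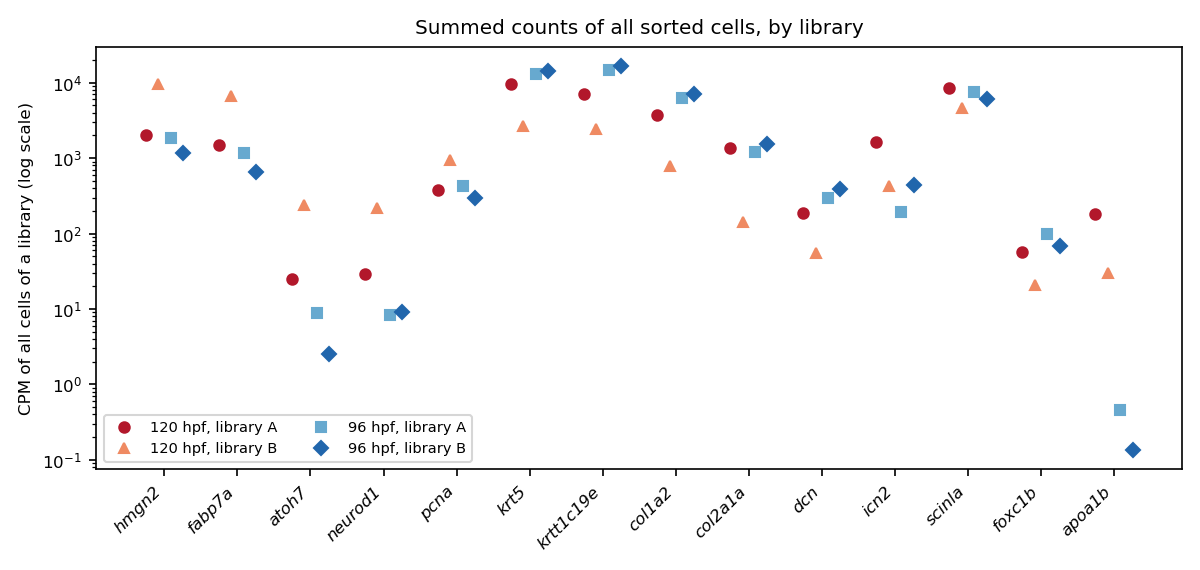
CPM of summed counts of all cells of a library (vertical axis, log scale) for 14 genes, at 120 hpf (red, library A circles, library B triangles) and 96 hpf (blue, library A squares, library B diamonds). The points of 120 B lie far from those of 120 A for many of these genes, as for atoh7 with 240.4 CPM in 120 B and 24.9 CPM in 120 A.

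Keratin, junction and basement membrane genes were more often lower than higher in both 120 hpf libraries, and many overlapped. Of 16 keratins 6 were lower and 1 higher in both 120 hpf libraries (median -0.50, pair -0.27). krt5, of the basal layer, had 9613 and 2689 CPM at 120 hpf, against 12868 and 14495 CPM at 96 hpf, and krtt1c19e 7090 and 2411 CPM, against 14681 and 16570 CPM, with a log2 fold change of -1.61 ± 0.52. krt4 (9811 and 3072 CPM at 120 hpf, 9140 and 12250 CPM at 96 hpf) and krt91 (22950 and 9155 CPM, against 18814 and 28146 CPM) overlapped. In both it was 120 B, the library with the lowest epithelial share, that was low. Hemidesmosome and basement membrane genes had 5 of 11 lower and 0 higher (median -1.15, pair -0.64), with the laminin gene lama5 at 149.8 and 16.8 CPM at 120 hpf, against 231 and 253 CPM at 96 hpf. Of 17 junction genes 7 were lower and 0 higher in both 120 hpf libraries, at a median of -0.37, but 0.16 in the pair. The adhesion molecule epcam had 884 and 261 CPM at 120 hpf, against 969 and 1116 CPM at 96 hpf. The ictacalcin gene icn2, of superficial epithelium, went the other way, with 1619 and 430.4 CPM at 120 hpf, against 191 and 444 CPM at 96 hpf. The log2 fold change of icn2 was 1.75 ± 0.72 over the 4 libraries (SE, edgeR adjusted p = 0.8655) and 1.87 in the pair. Its lowest 120 hpf library lay within the 96 hpf range.

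Collagen genes were lower at 120 hpf in the pair as well. All 8 fibrillar and fibril-associated collagen genes tested were lower in both 120 hpf libraries, at a median log2 fold change of -1.35 and -0.80 in the pair. col1a2, a chain of type I collagen, had 3697 and 784 CPM at 120 hpf, against 6325 and 7097 CPM at 96 hpf, with a log2 fold change of -1.50 ± 0.63 (adjusted p = 0.875). col1a1a had 2434 and 460.3 CPM, against 4301 and 4646 CPM. Their largest share of UMIs came from CEp1-like cells at both ages. Small leucine-rich proteoglycans, which coat collagen fibrils, were lower in 5 of 7. Decorin (dcn) had 189 and 55.9 CPM at 120 hpf, against 297 and 385 CPM at 96 hpf, and lumican (lum) 111 and 28.9 CPM, against 179 and 189.8 CPM. Cartilage matrix genes were lower in 5 of 13, and col2a1a, of type II collagen, overlapped at 1366 and 141 CPM at 120 hpf and 1200 and 1564 CPM at 96 hpf.

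**Figure D3:**
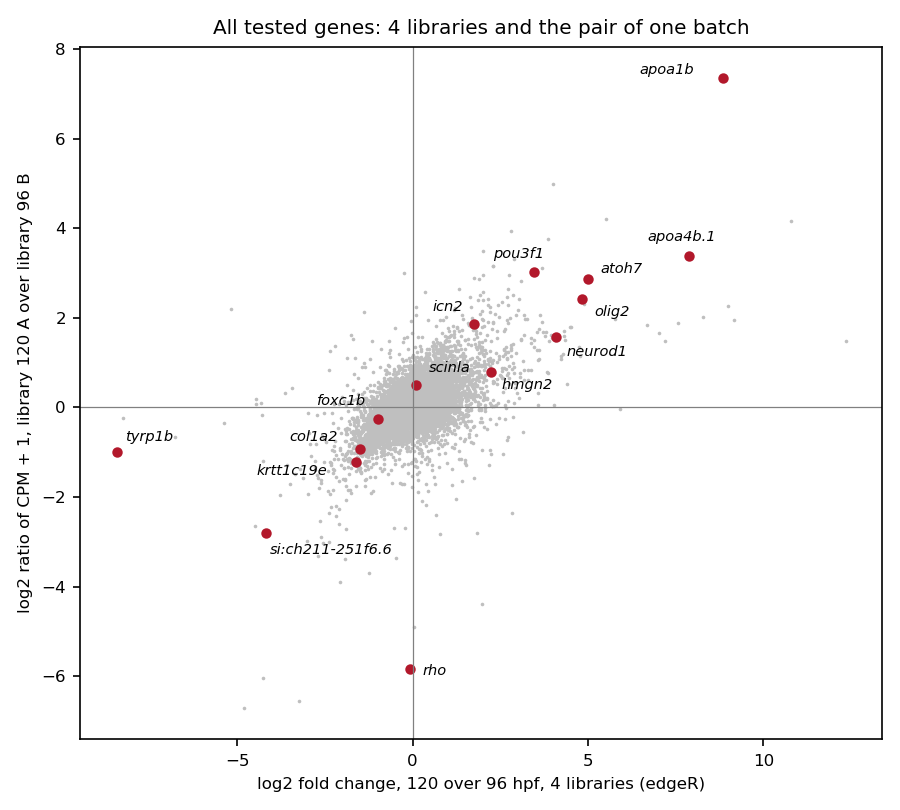
Log2 fold change of each tested gene over the 4 libraries (horizontal axis, 120 over 96 hpf, edgeR) against its log2 ratio of CPM + 1 in the same-batch pair (vertical axis, library 120 A over library 96 B), each grey point a gene and the red points genes named in the text. The 2 axes share 120 A and 96 B. pou3f1 and icn2 lie high on both axes, at 3.01 and 1.87 on the vertical one, and rho lies at -5.84 on it.

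The other lists are given by their counts. Of S100 proteins and annexins 2 of 20 were higher in both 120 hpf libraries and 7 lower. Among the actin-binding profilin, cofilin, thymosin and tropomyosin genes 3 of 14 were higher and 6 lower, with profilin 1 (pfn1) at 6142 and 3363 CPM at 120 hpf, against 10022 and 13347 CPM at 96 hpf. Of the annular ligament genes 5 of 11 were lower, with a median of -0.17. That list was picked from these same samples and is no independent evidence of a direction. It leaves out hmgn2, hmgb2b, mcm7 and pcna, which the study also uses as annular ligament markers. Their log2 fold changes were 2.25, 2.28, 1.03 and 1.15, and none passed the threshold. Of the 120 hpf UMIs of hmgn2 and hmgb2b, 63.0% and 57.9% came from neurogenic retinal progenitor-like cells. Tyrosine breakdown had 1 higher and 3 lower of 8, glycolysis 3 and 2 of 20, and retinoic acid synthesis and response 2 and 5 of 20. For the immediate early response it was 0 higher and 6 lower of 23, for heat shock and chaperones 1 and 4 of 17, and for the circadian clock 0 and 5 of 24. The clock median was -0.22 over 4 libraries and 0.52 in the pair. Pigment synthesis genes were lower in 4 of 6, with a median of -6.09, and -0.29 in the pair, which lacks 96 A. Photoreceptor transcription factors and disc proteins had 5 of 11 higher, at a median of 2.34, but -0.71 in the pair. Few members were tested of the fatty acid binding proteins (5, with 2 higher), the thyroid hormone list (4, 1 higher and 1 lower), the leukocyte list (4), the Hox genes (3), the lens crystallins (3) and the globins (0).

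To separate the mix of cells from expression within classes, the libraries were given 1 mix. For 7 classes with at least 10 cells in every library, the CPM of each class was weighted by the mean share of UMIs of that class over the 4 libraries. These classes held 91.2% and 42.2% of the cells of 120 A and 120 B, against 88.5% and 95.4% of those of 96 A and 96 B. The neurogenic progenitors and retinal neurons, which made up most of 120 B, were thus left out. Differences are given relative to the median of all genes, which was -0.333 on this scale, and beside the same cells in their own mix and the difference that the mix alone gives. The median absolute log2 difference over genes was 0.335 in the own mix, 0.277 after standardisation and 0.181 from the mix alone. With limma on log2(value + 1), 0 of 10145 genes had an adjusted p under 0.05 (0%) and 416 an unadjusted p under 0.05 (4.1%). Both 120 hpf libraries were above both 96 hpf libraries for 429 genes (4.23%) and below for 3192 (31.5%). Without 96 A 12 genes were called and without 96 B 17, and 0 without 120 A or 120 B.

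**Figure D4:**
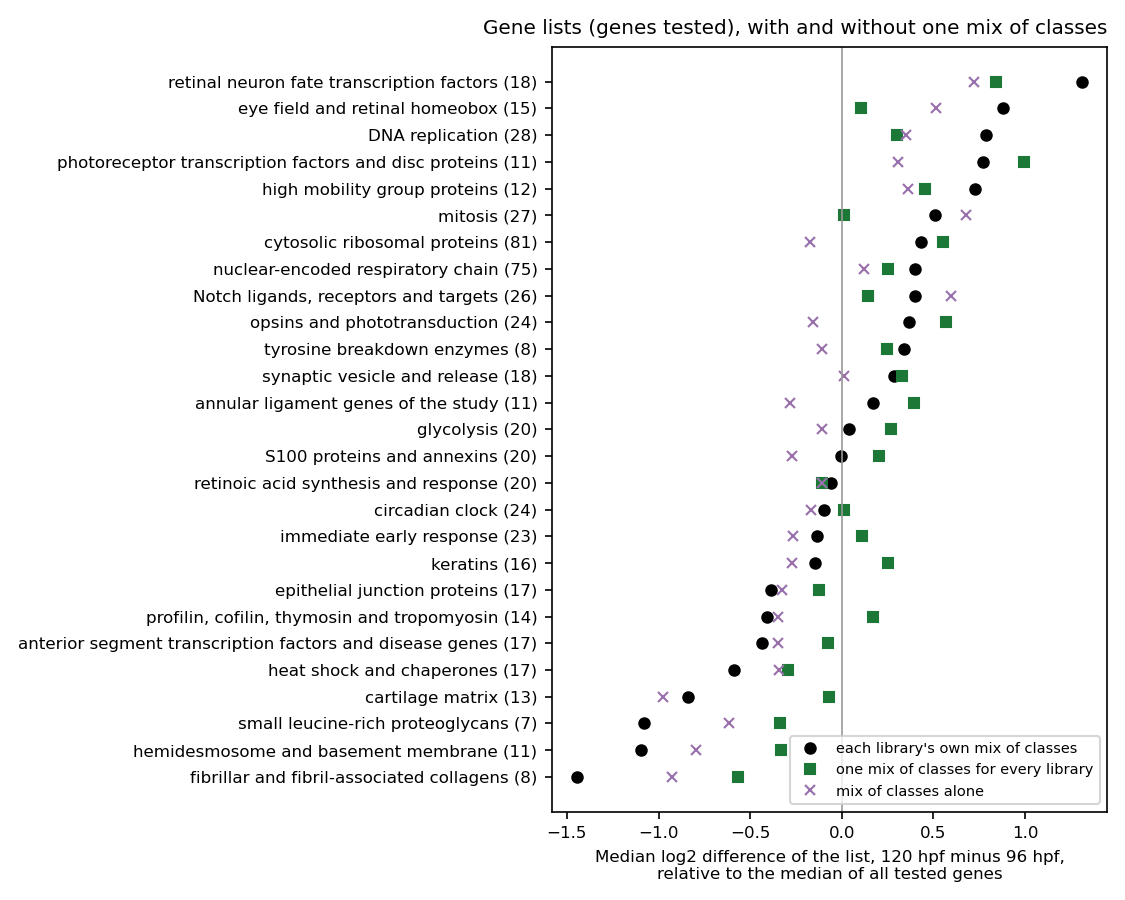
Median log2 difference of each gene list, 120 hpf minus 96 hpf, relative to the median of all tested genes (horizontal axis), in each library's own mix of classes (black circles), with 1 mix for every library (green squares) and from the mix alone (purple crosses), with the number of tested genes in brackets. The median of eye field genes is 0.88 in the own mix and 0.11 with 1 mix, and that of ribosomal protein genes 0.43 and 0.55.

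Some lists lost most of their difference with 1 mix, and others kept a part of it or all of it. The eye field median was 0.88 in the own mix and 0.11 with 1 mix, and that of mitosis 0.51 and 0.01, while the mix alone gave 0.51 and 0.68. The cartilage matrix median was -0.07 with 1 mix, against -0.84 in the own mix. For rx1 the values were -0.31 with 1 mix and 0.88 in the own mix, and for krt5 -0.01 and -0.94. foxc1b stood at -0.07 with 1 mix, against -0.81 in the own mix. The mix alone gave 1.11 for rx1, -0.98 for krt5 and -0.79 for foxc1b. The collagens kept a median of -0.57 with 1 mix, against -1.44 in the own mix, and -0.25 in the standardised pair. Ribosomal protein genes stood at 0.55 with 1 mix, 0.43 in the own mix, -0.17 from the mix alone and 0.21 in the standardised pair. Retinal neuron fate factors had a median of 0.84 with 1 mix, against 1.31 in the own mix, and 1.73 in the standardised pair. With 1 mix, 4 of 18 were higher and 1 lower in both 120 hpf libraries. Since the retinal progenitor-like cells of 120 B lay mostly in a cluster of their own, a mix of clusters within the class remained. Its part in the median of 0.84 was not tested. The pair compares 120 A with 96 B, which held only 6 and 2 cells of that cluster.

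For ribosomal protein genes the difference over the 4 libraries was larger than that of the same-batch pair. They summed to 321100 and 415500 CPM at 120 hpf, against 308000 and 310700 CPM at 96 hpf. 33 of 81 were higher in both 120 hpf libraries and 1 lower. The median log2 fold change was 0.43, but 0.03 in the same-batch pair. rplp1, of the ribosomal stalk, had 8438 and 10682 CPM at 120 hpf, against 8169 and 7634 CPM at 96 hpf, and rps2 7170 and 9000 CPM, against 6408 and 6892 CPM. Respiratory chain genes were at 11810 and 23690 CPM at 120 hpf, against 15320 and 12680 CPM at 96 hpf, with only 2 of 75 genes higher in both.

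Expression within classes was tested on UMIs summed per library and class, with edgeR as before. In AL2-like cells 1 of 5529 genes passed (0.0181%), and 197 had an unadjusted p under 0.05 (3.56%). The S100 gene icn fell to 2005 and 959 CPM in the AL2-like cells of 120 A and 120 B, against 10328 and 11830 CPM in those of 96 A and 96 B, with a log2 fold change of -2.53 ± 0.49 (SE, adjusted p = 0.0214) and -2.56 in the pair. It was read in 85 and 36 cells at 120 hpf, against 29 and 121 cells at 96 hpf, and 10 cells held 62.7% of its UMIs at 120 hpf and 65.6% at 96 hpf. icn was among the 10 leading genes of the AL2-like cluster at both ages together. It was most abundant in CEp2-like cells, with 14367 and 11865 CPM at 120 hpf, against 30842 and 16814 CPM at 96 hpf, and the markers of basal epithelium summed to 1126 and 513 CPM in AL2-like cells at 120 hpf, against 442 and 1257 CPM at 96 hpf. The part of epithelial RNA in the result was not tested. The call was lost without either 96 hpf library (adjusted p = 0.252 without 96 A and 0.415 without 96 B) and with clusters drawn at resolution 0.5 or 2 (adjusted p = 0.0523 and 0.0712), and with a block of the crossed pairs, 120 A with 96 B and 120 B with 96 A (adjusted p = 0.346). Genes called in AL2-like cells numbered 280 without 120 A, 86 without 120 B, 49 without 96 A and 24 without 96 B. tmsb1, a thymosin that binds actin, had 142 and 64.3 CPM at 120 hpf, against 814 and 747 CPM at 96 hpf (adjusted p = 0.0582), and it is a leading gene of the CEp1-like cluster. It was read in 41 and 16 AL2-like cells at 120 hpf, against 8 and 69 at 96 hpf. Of its 96 hpf UMIs there, 83.3% lay in 10 cells. wif1, a secreted Wnt inhibitor, had 42.9 and 24.9 CPM, against 255 and 163 CPM (adjusted p = 0.216). lpin1, a phosphatidate phosphatase of lipid synthesis, was the higher gene of smallest p, with 364 and 188 CPM at 120 hpf, against 97.2 and 132 CPM at 96 hpf.

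In the 2 epithelial classes no gene passed. Among CEp1-like cells 0 of 6105 genes were called (0%) and 210 had an unadjusted p under 0.05 (3.44%), with 2 called by DESeq2. lpin1 was again the higher gene of smallest p, with 156 and 151 CPM at 120 hpf, against 52.7 and 51.0 CPM at 96 hpf (log2 fold change 1.80 ± 0.36, adjusted p = 0.370). The replicates of each age were close and the pair gave 1.60. klf2a, a Kruppel-like factor, had 92.3 and 381 CPM, against 39.5 and 65.2 CPM, and chac1, which breaks down glutathione, 228 and 252 CPM, against 86.1 and 129 CPM. Without 1 library the count in CEp1-like cells was 185 (120 A), 24 (120 B), 8 (96 A) and 8 (96 B). entpd3 was lower within the class too, at 18.6 and 27.9 CPM at 120 hpf, against 127 and 66.7 CPM at 96 hpf. Among CEp2-like cells 0 of 5656 genes were called (0%), with 556 at an unadjusted p under 0.05 (9.83%) and 8 by DESeq2. Without 120 B the count was 138, and it was 0 without any other library. apoa1b had 83.8 and 293 CPM at 120 hpf, while both 96 hpf libraries were at 0, and was at least 59.4-fold higher at 120 hpf with 3 UMIs set over the 96 hpf group. This bound was 23.6-fold without 120 B and 10.5-fold without 96 B, and 10 cells held 91.6% of the UMIs. The keratin krt97 had 4863 and 5971 CPM at 120 hpf, against 2238 and 810.4 CPM at 96 hpf. It was read in 58 and 76 cells at 120 hpf, against 6 and 53 at 96 hpf. In 10 cells lay 63.9% of its UMIs at 120 hpf and 75.2% at 96 hpf. foxj1a, the factor that drives motile cilia, was lower, at 2.12 and 12.3 CPM at 120 hpf, against 134 and 161 CPM at 96 hpf, and was read in 1 and 6 cells, against 2 and 14 at 96 hpf. The larger CEp2-like cluster, of 559 cells, was itself led by lgals2b, icn, fabp1b.1 and fabp2, with afp4 and icn2 also among its leading genes. Whether all of its cells are superficial corneal epithelium was not tested. With clusters drawn at resolution 2, 50 cells led by genes such as fabp1b.1, fabp2 and afp4 formed a cluster of their own. It held 13 and 27 cells at 120 hpf, against 2 and 8 at 96 hpf, and was still named CEp2-like. The part of these cells in apoa1b was not tested.

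Few or no genes passed in the mesenchymal classes and in retinal progenitors. In CSt-like cells 0 of 2004 genes were called (0%), 109 at an unadjusted p under 0.05 (5.44%) and 0 by DESeq2. The count was 124 without 120 A, 40 without 120 B, 11 without 96 A and 6 without 96 B. col1a1a, itself a marker that named the class, had 2193 and 1977 CPM at 120 hpf, against 6458 and 8526 CPM at 96 hpf (log2 fold change -1.52 ± 0.42, adjusted p = 0.521). fn1b, a fibronectin, had 844 and 149 CPM, against 59.9 and 66.8 CPM, which rest on 6 and 10 UMIs. Of its 120 hpf UMIs, 68.6% lay in 10 cells. In cartilage-like cells 1 of 1572 genes was called (0.0636%), with 43 at an unadjusted p under 0.05 (2.74%). si:ch211-251f6.6 was at 0 in both 120 hpf libraries, against 1254 and 84.9 CPM at 96 hpf (adjusted p = 7.66e-05), and was at least 37.6-fold lower at 120 hpf with 3 UMIs set over the 120 hpf group, a bound that was 15.8-fold without 120 A, 21.8-fold without 120 B, 7.75-fold without 96 A and 114-fold without 96 B. The call rested on 3 cells of 96 A and 2 of 96 B, and was lost without 96 A (adjusted p = 0.999), with DESeq2 (adjusted p = 0.998) and with clusters at resolution 0.5 (adjusted p = 0.0573). Called genes in cartilage-like cells numbered 0 without 96 A, 1 without 96 B, 23 without 120 A and 8 without 120 B. thbs4b, a thrombospondin of tendon and cartilage, had 409 and 462 CPM at 120 hpf, against 3066 and 1456 CPM at 96 hpf (adjusted p = 0.998). In mural-like cells 0 of 2525 genes (0%) and in retinal progenitor-like cells 0 of 5280 (0%) were called, with 71 (2.81%) and 75 (1.42%) at an unadjusted p under 0.05, and 0 and 2 by DESeq2. Without 120 A the counts were 19 in mural-like and 201 in retinal progenitor-like cells. Without 120 B they were 6 and 2, without 96 A 1 and 3, and without 96 B 0 and 4. In the retinal progenitor-like class her4.4, a Notch target and a leading gene of the cluster of 120 B, had 90.4 and 263 CPM at 120 hpf, against 45.5 and 76.0 CPM at 96 hpf. slc1a2b, a glutamate transporter of Mueller glia, had 29.4 and 12.04 CPM, against 121 and 430 CPM.

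Ribosomal, collagen and mitosis genes were also counted within classes. Both 120 hpf libraries were above both 96 hpf libraries for 41 of 81 ribosomal protein genes in CEp1-like cells (6.9% of all genes there), for 58 of 81 in CEp2-like cells (5.3%) and for 39 of 81 in AL2-like cells (4.76%). The counts were 34 of 81 in CSt-like cells (8.38%), 15 of 78 in cartilage-like cells (6.74%) and 7 of 80 in mural-like cells (7.84%). In retinal progenitor-like cells it was 0 of 81 (5.25%). The medians were 0.44, 1.03 and 0.76 in CEp1-like, CEp2-like and AL2-like cells, and 0.07, 0.20 and 0.06 in the pair. Medians in this paragraph are TMM scaled, whereas pair values are of CPM without TMM scaling, so they are not on the same scale. The TMM factors of 120 A and 96 B were 0.959 and 1.05 in CEp1-like, 0.814 and 1.17 in CEp2-like and 0.964 and 1.12 in AL2-like cells. Collagens were below in 6 of 7 in CSt-like cells (32.5% of all genes there), with a median of -1.02 and -1.43 in the pair. In AL2-like cells 4 of 6 were below (34.5%), at -1.09 and -1.09 in the pair. In cartilage-like cells it was 4 of 6 (25.4%), in CEp1-like cells 5 of 8 (29.7%) and in mural-like cells 2 of 7 (20.8%). In CEp2-like cells 0 of 5 collagens were below, where 47.8% of all genes were. Their median was -0.57, and -0.98 in the pair, against 0.03 and -0.50 for all genes there. Mitosis genes were below in 2 of 25 in AL2-like, 4 of 9 in CEp1-like and 2 of 27 in retinal progenitor-like cells (15.7% of all genes there). In CEp2-like cells 23 of 23 mitosis genes were below, with a median of -0.80 and -1.01 in the pair.

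A set of genes lay to 1 side in most classes. In 1094 genes tested in all 7 classes, TMM-scaled CPM of the ages did not overlap in at least 6 classes for 36 genes that were higher at 120 hpf (3.29%) and 5 that were lower (0.457%). These genes were chosen for this pattern, and the classes come from the same 4 libraries, so that the count is a description with no test. The 5 lower genes were hspa5, hsp90b1, calr, p4hb and kdelr2a. Their products fold proteins in the endoplasmic reticulum (the chaperones BiP and Grp94, calreticulin and protein disulfide isomerase) or return them to it (the KDEL receptor). hspa5 was lower without overlap in all 7 classes, and each of the 5 in 6 classes without TMM scaling. It had 89.0 and 102 in AL2-like cells at 120 hpf, against 276 and 180.5 at 96 hpf, and 327 and 403 in CEp2-like cells, against 808 and 753 (CPM over the TMM factor). hsp90b1 had 41.8 and 34.3 in CEp1-like cells at 120 hpf, against 74.9 and 78.1 at 96 hpf. The median log2 fold change over classes was -1.08 for hspa5 and -1.01 for hsp90b1, and in the same-batch pair -1.01 and -0.98. Pair values of this set of genes, here and in the next paragraph, are ratios of CPM over the TMM factor of the class. All 5 were lower in the pair in all 7 classes, with medians of -0.83 for calr, -0.54 for kdelr2a and -0.14 for p4hb. For p4hb some classes were level, as CEp2-like cells with 135.4 in 120 A and 135.6 in 96 B. In the sums of all cells hspa5 had 216 and 179 CPM at 120 hpf, against 334 and 306 CPM at 96 hpf.

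Of the genes higher in most classes a few are given here. lpin1 did not overlap in 6 classes, with 148 and 171 in CSt-like cells at 120 hpf, against 68.0 and 24.1 at 96 hpf, and 289.7 and 247 in cartilage-like cells, against 108 and 64.0. Its median log2 fold change over classes was 1.65, and 1.67 in the pair, TMM scaled as above. gbp, a binding protein of glycogen synthase kinase, had medians of 1.60 and 1.62 in the pair, where it was higher in all 7 classes. cebpd, a transcription factor of the C/EBP family, was higher in all 7 classes (6 without TMM scaling), with 728 and 1044 in CSt-like cells at 120 hpf, against 136 and 284 at 96 hpf, and its pair median was 0.64. Ribosomal protein and translation factor genes (rps4x, rpl3, rpl28, eif3k, eif3m and eif2s3 among them) were in this set, and of these 6 the pair medians lay between 0.26 for rps4x and 0.42 for eif2s3. fabp7a was in the set too, but its ages overlapped in AL2-like cells. There it had 2760 and 2089 at 120 hpf, against 4682 and 1562 at 96 hpf (CPM over the TMM factor). AL2-like cells held 44.1% of its UMIs at 96 hpf, the largest part of any class. In CEp1-like cells fabp7a had 51.3 and 75.9 CPM at 120 hpf, against 4.05 and 41.9 CPM at 96 hpf. Retinal progenitor-like cells had 4131 and 7627 CPM, against 2760 and 3214 CPM. The part of free RNA in the CEp1-like values was not tested. In CPM without TMM scaling 12 genes were higher and 36 lower. Without 1 library in turn there were 98 to 351 higher genes (96 B and 120 A left out) and 39 to 196 lower genes (96 A and 120 A left out).

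**Figure D5:**
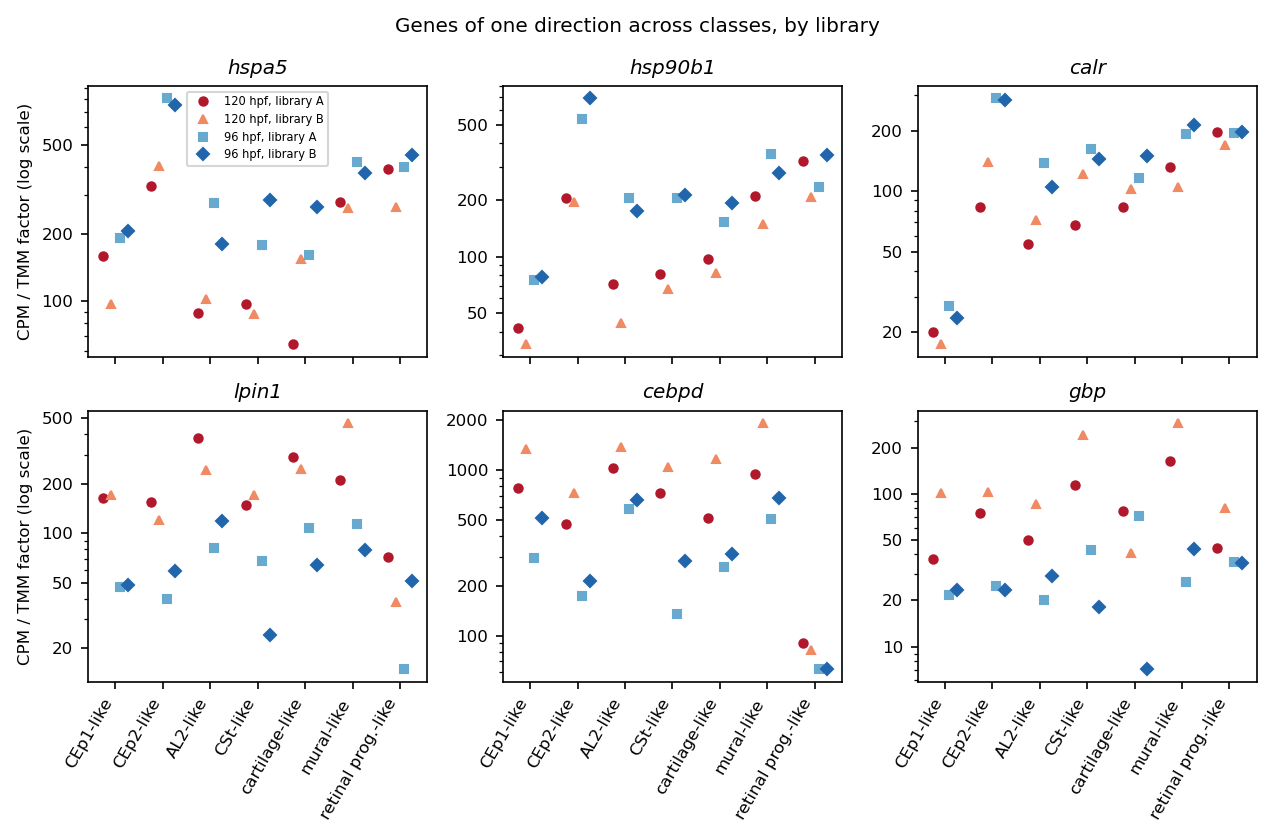
CPM over the TMM factor (vertical axes, log scale) of 6 genes chosen after their values were seen, in each of 7 cell classes (horizontal axis) and each library, 120 hpf in red (library A circles, library B triangles) and 96 hpf in blue (library A squares, library B diamonds). For hspa5 both red points lie below both blue points in every class, and for cebpd above them.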

How the data were processed

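Single-cell RNA-seq was read from droplet libraries of sorted cells at 2 of 5 time points. The authors deposited UMI counts per gene and cell, made with Cell Ranger 6.0 (per the submitters' processing notes) on GRCz11, and a table that gives each cell's library and batch. The labels name another version of the 10x chemistry than the study's methods. Counts were not normalised, and the filters on cells are those of the deposited matrices. The 16283 features carried 15413 gene symbols, of which rows with the same symbol were summed. No mitochondrial gene is listed. Doublet calls (109 cells, 1.66%) were tried as an alternative and kept in the comparison.

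UMIs were summed per library. Genes with enough counts (filterByExpr) were tested with edgeR 4.0.16 (TMM scaling, quasi-likelihood F test, Benjamini-Hochberg adjustment, threshold 0.05), and DESeq2 1.42.0 was an alternative. CPM values and log2 ratios of the same-batch pair are not TMM scaled unless stated, whereas the log2 fold changes of edgeR are. Cells were clustered with the Leiden algorithm (leidenalg 0.10.2, 100 principal components, 20 neighbours, resolution 1), and classes with at least 10 cells in every library were tested in the same way. Standardised values were tested with limma 3.58.1 on log2(value + 1). R 4.3.3 and Python 3.11.15 were used, and the fits were tested on simulated data.

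Named genes were those past the threshold without overlap between ages and with the same direction in the pair, at a mean of at least 20 CPM (50 CPM within a class), or, where fewer than 5 qualified (4 within a class), those of smallest p. From each list described, up to 4 members of highest mean were eligible, together with genes the study discusses. Some genes that this rule names are not reported here. The members, marker lists (196 of 208 markers matched) and gene lists were chosen with earlier results of these data known. Alternatives were other scalings, filters, cell sets and cluster resolutions, a block for the library letter or for the crossed pairs, and leaving out each library. Sums rest on 2173620 to 15621511 UMIs per library.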

Additional observations from a re-analysis of the deposited data

Results flagged for a closer look

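Only the genes that the text names within a class were searched for opposite directions between classes, in TMM-scaled CPM. Of these, 5 lay above both 96 hpf libraries in at least 1 class and below both in another. None of these differences between classes was tested. entpd3 had a log2 fold change (120 over 96 hpf) of 1.62 in CEp2-like cells and -1.78 in CEp1-like cells. icn had 1.16 in mural-like cells and -2.53 in AL2-like cells. For klf2a the value was 2.4 in CEp1-like cells, 1 of 4 classes in which it was higher, and -0.769 in cartilage-like cells. slc1a2b had 3.6 in CEp1-like cells and -3.51 in retinal progenitor-like cells. tmsb1 had 0.884 in CEp2-like cells and -2.54 in AL2-like cells. The 4 libraries are the same in every class.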

How the results depend on the processing

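With 2 libraries per age, counts of called genes differed between tools and between sets of libraries. Without 1 library, its age has a lone library, which is assumed to vary like those of the other age. Over all genes, against 0 here, DESeq2 called 74 genes, no filter on low counts 84 and thinning to 400 UMIs per cell 1, and leaving out 1 library gave 4 to 112. List members called were 19 with DESeq2, 19 without the filter and 0 to 32 without 1 library. Within AL2-like cells (1 gene here) DESeq2 called 3, no TMM scaling 2, resolutions 0.5 and 2 each 0, and leaving out 1 library 24 to 280. In cartilage-like cells (1 gene) DESeq2 and resolution 2 gave 0, and leaving out 1 library 0 to 23. DESeq2 called 2 genes in CEp1-like, 8 in CEp2-like and 2 in retinal progenitor-like cells, against 0 here. Without 1 library the ranges were 8 to 185 in CEp1-like, 0 to 138 in CEp2-like, 6 to 124 in CSt-like, 0 to 19 in mural-like and 2 to 201 in retinal progenitor-like cells. With standardised values the same cells in their own mix gave 2 genes, and leaving out 1 library 0 to 17. Genes to 1 side in at least 6 classes were 12 higher and 36 lower without TMM scaling, and 98 to 351 higher and 39 to 196 lower without 1 library, where fewer libraries separate more easily. Without TMM scaling the median of all genes shifted down in every class compared, most in CEp2-like cells, at -0.59.

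The letters A and B do not pair the libraries: the A minus B deviations of the ages correlated at -0.146 over 10145 genes. With the letter as replicate block 44 genes were called over all genes and 11 list members, 5 in AL2-like, 7 in CEp1-like, 42 in CEp2-like, 6 in CSt-like, 1 in cartilage-like, 0 in mural-like and 0 in retinal progenitor-like cells, and 30 with standardised values. The crossed pairing as block, 120 A with 96 B and 120 B with 96 A, was added after seeing the data. It follows the letters K and J of the table of cells, but only the first of these pairs shares a batch name. With it 103 genes were called over all genes and 26 list members, 26 in CEp1-like, 88 in CEp2-like, 2 in cartilage-like and 23 in retinal progenitor-like cells, and 79 with standardised values.

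The difference in mesenchymal share, -10.4 percentage points, was -16.06 at resolution 2, where 422 cells led by cldni, krt15 and epcam beside collagen genes were counted as stroma, and -3.12 as a share of UMIs. Without 1 library it ranged over -14.51 to -5.317, the retinal difference over 18.2 to 46.77, the epithelial over -26.02 to -1.915 and the AL2-like over -9.154 to 1.589. Of the named genes' log2 fold changes, 11 turned direction in an alternative, 1338 kept direction and side of the threshold, 123 passed it and 8 no longer did. Those that turned were krt91 without 96 B (9.697e-05, with -1.11 as the other end of the range without 1 library), scinla without TMM scaling (-0.04436) and without 120 A (-0.2833, other end 0.3767), lxn without shared barcodes (0.007001) and without 120 B (0.08597, other end -0.338), icn in CEp2-like cells without 96 A (0.2096, other end -0.4591), and rho (1.282 with the replicate block, 1.297 thinned, 0.6922 with the crossed block, 0.8577 without 120 A, 13.31 without 96 B and, at the other end, -5.159 without 120 B). The causes were not tested. The mural-like and CSt-like classes could not be fitted at resolution 0.5.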
